A study of Mus musculus with 2 samples.

Results

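The genes described here encode the proteins of the cytosolic ribosome, whose symbols begin with Rpl (large subunit) or Rps (small subunit). Members were chosen by symbol alone: Rpl or Rps followed by digits, with the paralogue and P-stalk forms, without pseudogenes and without the Rps6k kinases. Of 31053 genes in the deposited matrices, 83 symbols fitted that rule and 81 of them held at least 200 unique molecular identifiers (UMIs, one per captured mRNA molecule) over both libraries. Rpl39l, with 583 UMIs, was the member nearest to that limit, and Rpl3l (3 UMIs) and Rpl10l (1 UMI) fell outside it. The 81 genes lie on 19 chromosomes, 14 of them on chromosome 7 and 4 on the X chromosome. Rpsa, Fau and Rack1 also belong to the ribosome but carry other symbols, and they are given separately.

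The libraries hold perivascular stromal cells, isolated from the fat that surrounds the aorta of wild-type (WT) mice by collagenase digestion, straining and lysis of red blood cells. One group was labelled young (1 library) and the other old (1 library), and both were made with the 10x Genomics 3′ kit, version 2. The sources used here do not give ages, sexes or the number of animals behind each library. The series title places such cells in the context of abdominal aortic aneurysm, a widening of the abdominal aorta.

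Each ribosome carries one copy of nearly every ribosomal protein, so the cell makes these proteins in matched amounts. Their mRNAs are among the most abundant in growing cells, and most begin with a run of pyrimidines at the cap, the 5′ terminal oligopyrimidine (TOP) tract, through which the mTOR pathway and the RNA-binding protein LARP1 control their translation. New ribosomes are assembled in the nucleolus by a separate set of factors that make, trim and fold the ribosomal RNA.

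The young matrix held 13104 cell barcodes and 130398999 UMIs, the old one 14636 barcodes and 147166475 UMIs, and 275 barcode sequences occurred in both. After filtering, 11453 young and 12207 old cells were kept, with median depths of 8916 and 9230 UMIs. Cells were assigned to a class when at least 4 of 8 marker genes held a UMI. Mesenchymal cells, defined by collagen, Dcn, Lum and Pdgfra-type markers, made up 81.0% of the kept young cells and 80.2% of the old ones. A second set of 8 mesenchymal genes that played no part in the gate summed to 3674 CPM (UMIs scaled to a common total per class) in young and 4357 CPM in old noncycling mesenchymal cells, against 729 and 832 CPM in endothelial cells. Because each age has 1 library, no test across animals is possible, and age cannot be told apart from any other difference between the libraries. Intervals below are 95% intervals for counting error only, and a gene is "called" higher or lower when the larger of its 2 point estimates exceeded the smaller by at least 25%.

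The sequence around the transcription start holds features that were more frequent in these genes than in all genes, though most members lacked each one. Of the 81 members, 61 had at least one start in the RefSeq promoter table (build GRCm38.p6), and the longest unbroken run of C and T that touched the 5 bases on either side of a start was measured. The starts of some members at the ends of the old-to-young order given further on, with that of the most abundant member, are printed below. Each is 30 bases long, 5′ to 3′ on the gene's strand, beginning 10 bases before the annotated start, with the run in capitals where it spans at least 4 bases.
Rpl35 (chr2:39005112-39005141, minus strand): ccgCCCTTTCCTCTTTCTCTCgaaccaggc
Rpl38 (chr11:114668570-114668599, plus strand): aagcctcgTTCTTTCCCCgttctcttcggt
Rps13 (chr7:116334171-116334200, minus strand): caaacgtcggtgagtggcgtcacttcctgt
Rpl5 (chr5:107900518-107900547, plus strand): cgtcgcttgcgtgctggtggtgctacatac
Rpl7l1 (chr17:46782637-46782666, minus strand): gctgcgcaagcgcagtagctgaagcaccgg
Rpl41 (chr10:128549149-128549178, minus strand): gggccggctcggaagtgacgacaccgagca
Rpl14 (chr9:120571507-120571536, plus strand): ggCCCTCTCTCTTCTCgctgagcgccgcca
Rps2 (chr17:24720053-24720082, plus strand): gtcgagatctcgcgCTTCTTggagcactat
Rpl22l1 (chr3:28805498-28805527, plus strand): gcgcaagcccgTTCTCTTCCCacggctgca
Rpl27 (chr11:101442235-101442264, plus strand): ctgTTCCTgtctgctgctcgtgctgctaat

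A run of at least 8 pyrimidines was present at a start of 24 of the 61 members (39.3%), against 11.4% of the 27025 genes in the table, and the median longest run was 6 bases against 4. The letters CTTTCC on the gene's strand, between 20 bases before and 50 bases after the start, occurred in 31.1% of members and 3.79% of all genes. The letters CCGGAAG on either strand, anywhere in the 300 bases of the promoter entry, occurred in 41.0% and 9.93%. Annotated starts can lie some bases away from the start a cell uses, and a missing run says only that these letters are not in the window. Among the printed starts, Rpl35 and Rpl38 carry long runs near the top of the order and Rpl14 and Rpl22l1 near the bottom. Rpl5, Rps13 and Rpl7l1, which carry no run of at least 4 bases, are all near the top. Each printed start from the bottom carries a run of at least 4 bases, but 4 is also the median longest run of all genes. Not every start at these ends is printed. Near the bottom Rpl36al had a longest run of 3 bases and Rpl4 of 14. Near the top Rps27l had runs of 9 and 4 bases at its starts, and Rps24 of 9 and 2.

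Ribosomal protein mRNAs took up a smaller part of the old library's mesenchymal transcriptome than of the young one's. In noncycling mesenchymal cells, those with at most 1 of 12 mitotic and at most 1 of 12 S-phase markers, the 81 genes held 33.27% of all UMIs in the young library (interval 33.25 to 33.28, 4694 cells). In the old library they held 27.62% (interval 27.61 to 27.63, 5304 cells). The summed share was thus 1.20-fold lower in the old library, a difference of 5.65 percentage points of all UMIs. The large-subunit genes went from 19.1% to 15.7% and the small-subunit genes from 14.2% to 11.9%, so that their ratio stayed close, at 1.34 and 1.32.

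The shift ran through the whole population of cells. The median noncycling cell had 33.1% ribosomal protein UMIs in the young library (quartiles 29.8 and 36.1) and 26.8% in the old one (quartiles 23.2 and 30.6). Of the old cells, 86.0% lay under the young median and 70.4% under the young lower quartile, while 11.6% of the young cells lay under the old median. Cells with a share under 20% made up 2.26% of young noncycling cells and 9.54% of old ones. The standard deviation between cells was 5.62 points in the young and 5.75 points in the old library, against 0.56 and 0.52 points from counting alone, so cells of 1 library differed from each other by far more than counting noise. The histogram of cells shows that both distributions have a single main peak and overlap.

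**Figure D1:**
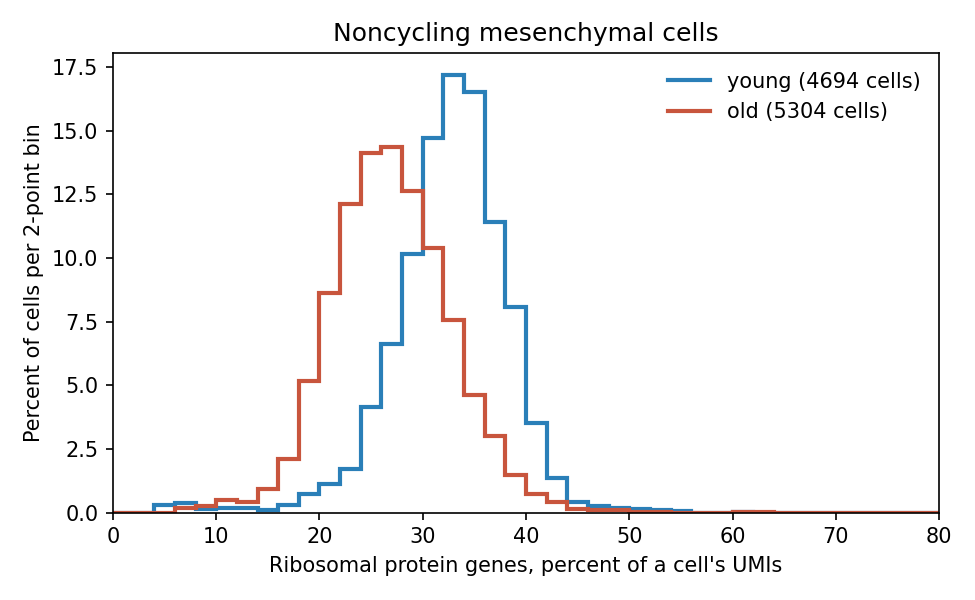
Share of each noncycling mesenchymal cell's UMIs that came from the 81 ribosomal protein genes (x axis, percent), as the percent of cells in each 2-point bin (y axis), for the young (4694 cells) and the old library (5304 cells). The old curve peaks to the left of the young one, around its median of 26.8% against 33.1%, and the curves overlap.

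Other measures of the same cells also moved. Malat1, a nuclear long noncoding RNA, was at 32309 CPM in young and 26976 CPM in old noncycling cells, mitochondrially encoded genes held 2.82% and 2.41% of UMIs, and the median depth was 8032 and 8019 UMIs. The 50 other genes that gained most took up 4.76 percentage points more of the old UMIs. They include the iron-storage gene Fth1 (6958 and 12231 CPM), the chemokines Cxcl1 (32.8 and 3518 CPM) and Ccl2 (117 and 2966 CPM) and the acute-phase gene Saa3 (131 and 1998 CPM). A share falls when other mRNAs rise, and the part of these gains in the lower ribosomal share was not tested. With mitochondrial genes and the 50 most abundant other genes left out of the denominator, the shares were 40.6% in the young library and 33.6% in the old one. Markers of other cell types were present at low to moderate levels in both. Of these, 8 macrophage genes outside the gate summed to 15.4 CPM in young and 43.0 CPM in old noncycling cells (Ctss at 0 in the young), against 19116 CPM in old macrophages, and 8 endothelial genes to 19.7 and 15.1 CPM (Robo4 and Sox17 at 0 in the young). A like list for adipocytes summed to 524 and 548 CPM, against 41802 CPM in old adipocytes, and one for pericytes to 185 and 182 CPM, against 389 CPM in old pericytes. The gate's own lists were higher in the old noncycling cells for pericytes (39.5 and 99.1 CPM), endothelial cells (14.4 and 40.5 CPM) and macrophages (14.5 and 31.1 CPM), and their part in the result was not tested.

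Most members were lower in the old library by a similar, modest amount. Of the 81 genes, 75 had a log2 ratio of old to young CPM below 0 in noncycling mesenchymal cells, and for 74 the whole counting interval lay below 0. The median log2 ratio was -0.27, with quartiles of -0.35 and -0.19, while the median of the 12492 genes tested was 0.16. Large-subunit and small-subunit members had nearly the same median, -0.26 and -0.27. By the 25% limit, 25 members were lower, where 17.5% of all genes tested were called lower, and 2 members were higher, where 36.6% of all genes were. At 1.5-fold, 4 members were lower (10.1% of all genes) and 1 was higher (19.7% of all genes).

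These counts depend on the scale. When the libraries were scaled by the median of gene ratios instead of total UMIs, every ratio fell by 0.16 on the log2 scale. Then 64 members were called lower and 1 higher, while the split over the 12476 genes with a UMI in both libraries moved from 17.5% lower and 36.5% higher to 25.2% and 25.2%. The 25 members called lower by total UMIs were all among the 64. The plot of member ratios shows how tightly the bulk of the genes lies together and how few stand off at either end.

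**Figure D2:**
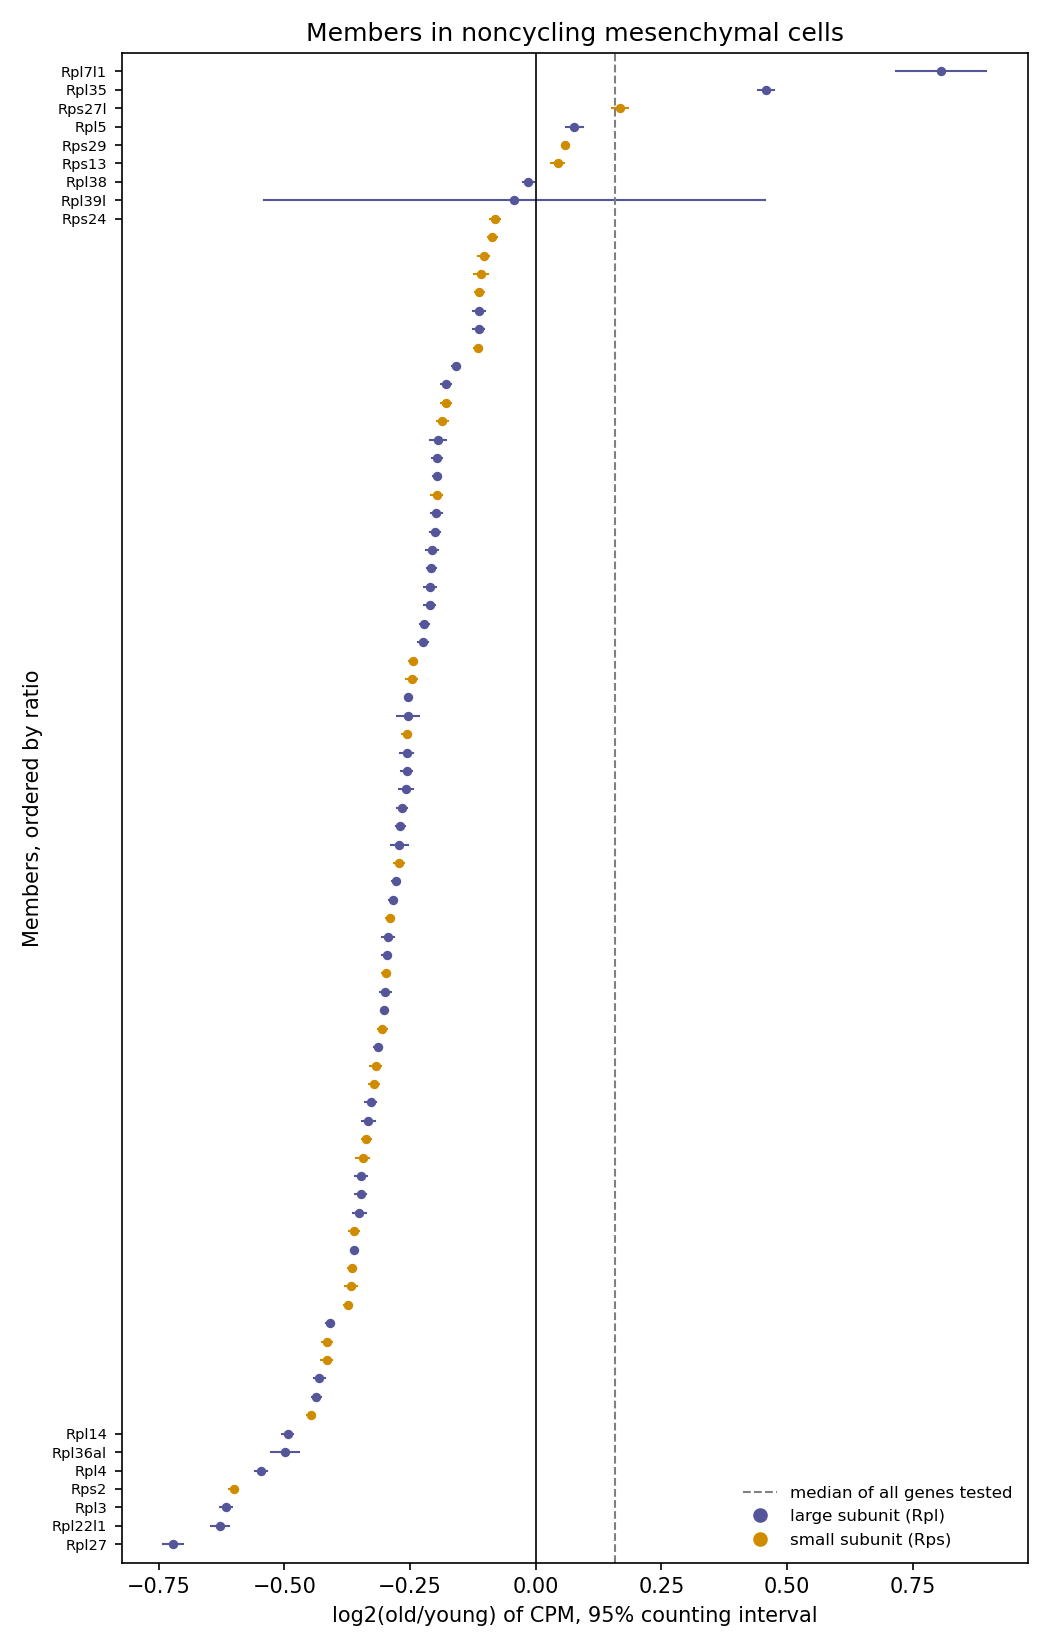
Log2 ratio of old to young CPM (x axis) for each of the 81 ribosomal protein genes (y axis, ordered, with names at both ends) in noncycling mesenchymal cells, with 95% counting intervals as bars and the median of all genes tested (0.16) as a dashed line. Points run from Rpl27 at -0.72 to Rpl7l1 at 0.81, and 75 of the 81 lie left of 0.

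Of the 7 members with the lowest ratios, 6 belong to the large subunit, which holds most of the members. The medians of large-subunit and small-subunit members were nearly the same, at -0.26 and -0.27. Rpl27 (chr11:101442298-101445529, GENCODE vM21 on GRCm38), a large-subunit protein whose gene is among those mutated in Diamond-Blackfan anaemia, had 1173 CPM in young and 712 CPM in old noncycling cells, a log2 ratio of -0.72 (interval -0.74 to -0.70). Rpl22l1 (chr3:28805436-28807424), the paralogue of the RNA-binding protein Rpl22, had 1482 and 958 CPM, or -0.63. Rpl3 (chr15:80077791-80091868), which reaches into the peptidyl transferase centre, had 3208 and 2093 CPM, or -0.62. These 3 genes and Rps2 were the members past 1.5-fold.

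Rps2 (chr17:24718116-24721929), a protein of the mRNA entry channel, had 7027 CPM in young and 4633 CPM in old cells (-0.60). Rpl4 (chr9:64173375-64178666), whose long loop lines the exit tunnel for the growing peptide, had 2898 and 1985 CPM (-0.55). Rpl36al followed at -0.50, and Rpl14 had 3849 and 2734 CPM (-0.49). The lowest members thus include both scarce and highly abundant mRNAs.

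Rpl35 went the other way from the group. This exit-tunnel protein (chr2:39001580-39005624), another Diamond-Blackfan anaemia gene, had 1247 CPM in young and 1713 CPM in old noncycling cells, a log2 ratio of 0.46 (interval 0.44 to 0.47), or 1.37-fold higher. It was higher in the old library in every class compared: by 0.59 in mitotic mesenchymal, 0.65 in endothelial, 0.40 in mesothelial and 0.40 in Schwann cells on the log2 scale. Its neighbours in the order differed from it by more than their intervals.

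Rpl7l1, the other member called higher, had 37.0 CPM (1514 UMIs) in the young and 64.8 CPM (3012 UMIs) in the old noncycling cells, or 0.81 (interval 0.72 to 0.90). It resembles Rpl7 in sequence but is known as a factor of large-subunit assembly rather than as part of the mature ribosome. Rps27l had 1263 and 1419 CPM (0.17), Rpl5 had 1312 and 1383 CPM (0.08), Rps29 had 6344 and 6608 CPM (0.06) and Rps13 had 2150 and 2216 CPM (0.04). With median-of-ratios scaling Rpl5, Rps29 and Rps13 lie below 0 and Rps27l close to it. Rpl38 at 3345 and 3312 CPM (-0.01) and Rps24 at 3641 and 3442 CPM (-0.08) complete the 8 highest ratios among members with at least 200 UMIs in these cells. Rpl39l, with fewer, was at -0.04.

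The most abundant members given here had lower values in the old library. Rpl41, which encodes the shortest ribosomal protein, had 14987 CPM in young and 12163 CPM in old noncycling cells (-0.30). The 3′ kit counts 1 end per molecule, so these CPM values compare molecules between genes without a correction for length. Rpl41 alone made up 4.50% of all ribosomal protein UMIs in the young cells and 4.40% in the old ones. Rplp1 had 8789 and 7246 CPM (-0.28), Rps19, the gene most often mutated in Diamond-Blackfan anaemia, 8528 and 7199 CPM (-0.24), Rpl13 had 8319 and 6476 CPM (-0.36) and Rpl37a 7469 and 6265 CPM (-0.25).

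By place in the ribosome the groups lay close together. The P stalk recruits elongation factors. The list used for it held 5 genes, with Rpl12 and Rpl10 beside the stalk genes, of which 1 was called lower, and had a median of -0.21. Rpl10, not a protein of the stalk itself, was at -0.11. Rplp0, its base, had 7315 and 5507 CPM (-0.41), and Rplp2 had 4760 and 4121 CPM (-0.21), the acidic tip proteins being less reduced than the base. Rpl12, which binds beside the stalk, had 3152 and 2723 CPM (-0.21). The 9 measured exit-tunnel proteins had a median of -0.27, with 1 lower and 1 higher, and the 9 proteins of the decoding centre and mRNA channel a median of -0.30, with 3 lower and none higher. Of 18 Diamond-Blackfan anaemia genes, 5 were lower and 1 higher, with a median of -0.25. For comparison, 17.5% of all genes were called lower and 36.6% higher.

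The pair that forms the 5S particle with 5S RNA and can bind the p53 regulator Mdm2 did not move together. Rpl11 had 3463 CPM in young and 2759 CPM in old cells (-0.33, interval -0.34 to -0.32), while Rpl5 was at 0.08 (interval 0.06 to 0.09). Rps27a, made as a fusion with ubiquitin, had 6111 and 4741 CPM (-0.37). Rps6, the substrate of the S6 kinases, had 3440 and 2760 CPM (-0.32). Rps4x, from the X chromosome, had 4250 and 3186 CPM (-0.42).

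Rpsa, Fau and Rack1, outside the symbol rule, lay within the range of the members. Rpsa, the laminin receptor homologue of the small subunit, had 4373 and 3203 CPM (-0.45) and was called lower. Fau had 3596 and 3012 CPM (-0.26) and Rack1, a scaffold on the small subunit's head, had 1632 and 1401 CPM (-0.22).

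Paralogues allow a comparison within pairs, in which the library's scale cancels. Rpl22l1 made up 47.1% of the UMIs of the Rpl22 pair in young noncycling mesenchymal cells (interval 46.9 to 47.4) and 39.8% in old ones (interval 39.47 to 40.04). Its share was also lower in the old library in mitotic cells (44.4% and 38.4%), endothelial cells (45.3% and 34.3%), mesothelial cells (52.6% and 43.9%) and Schwann cells (49.4% and 45.3%), though in Schwann cells the intervals overlap. Rps27l, a p53-responsive paralogue of Rps27, took 18.8% of its pair in young and 21.95% in old noncycling cells, and 25.3% and 27.4% in mitotic cells. In other classes its share did not move one way: it was 21.3% and 23.9% in mesothelial cells, 26.4% in endothelial cells of both libraries, and lower in the old library in Schwann cells (27.5% and 22.02%). Rpl7l1 took 1.53% of its pair with Rpl7 in the young and 3.14% in the old noncycling cells, and 2.12% and 3.40% in mitotic cells. In mesothelial (2.14% and 2.53%), Schwann (1.19% and 2.29%) and endothelial cells (3.60% and 3.41%) the intervals overlap.

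Rpl36al took 18.4% of its pair with Rpl36a in the young and 16.7% in the old noncycling cells. Its share was also lower in the old library in mitotic (20.4% and 17.3%) and endothelial cells (19.3% and 14.6%). The same held in mesothelial (21.6% and 17.3%) and Schwann cells (22.8% and 16.1%), and in all of these the intervals do not overlap. In adipocytes the share was higher in the old library (8.94% and 19.4%, intervals apart), with only 4 young cells. In macrophages and pericytes the intervals overlap. Rpl39l, a form known from the male germ line, was close to the detection limit, with 67 UMIs beside 238434 of Rpl39 in the young and 74 beside 218220 in the old noncycling cells. That is 0.028% and 0.034% of the pair, with overlapping intervals. In old Schwann cells, macrophages and adipocytes Rpl39l had 0 UMIs, so no ratio is given for it there.

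The mitotic mesenchymal cells, with at least 4 of 12 mitotic markers, showed the same ordering between the libraries at a smaller size. They held 32.79% ribosomal protein UMIs in the young (2543 cells) and 28.95% in the old library (2361 cells). The median log2 ratio of the members was -0.18, against 0.12 for all genes tested. By the 25% limit 9 members were lower, where 16.5% of all genes were called lower, and 2 were higher, where 31.6% were. Rpl27 (-0.71), Rpl36al (-0.52), Rps2 (-0.51), Rpl3 (-0.46) and Rpl22l1 (-0.45) had the lowest ratios, and Rpl35 (0.59) and Rpl7l1 (0.54) the highest. The noncycling and mitotic cells of a library share its chemistry and free RNA, so these ratios are not an independent repeat.

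Between mitotic and noncycling cells of the same library the group as a whole differed little. In the young library the mitotic share was 0.48 points lower than the noncycling one, and in the old library 1.33 points higher. The median log2 ratio of mitotic to noncycling CPM was -0.03 in the young library and 0.07 in the old one. By the 25% limit, 3 young members were higher and 0 lower, where 23.2% of all genes were called higher and 20.4% lower. In the old library 1 was higher and 0 lower, where 19.8% of all genes were called higher and 22.1% lower.

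Depth touched this comparison directly. Mitotic cells were deeper than noncycling ones, with medians of 12205 and 8032 UMIs in young and 12864 and 8019 UMIs in old cells, and deeper cells mostly had a higher share. Young noncycling cells went from 30.2% at 500 to 3999 UMIs to 36.0% at 17000 UMIs or more, and old ones from 21.6% to 29.3%. Within depth bins the young mitotic cells were lower in all 7 bins, by 1.74 points on average. The old mitotic cells were higher in 3 and lower in 3 of the bins with enough cells, and the mean difference was 0.13 points. The plot of share by depth shows that the gap between the libraries was larger than the gap between cycling states in each bin.

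**Figure D3:**
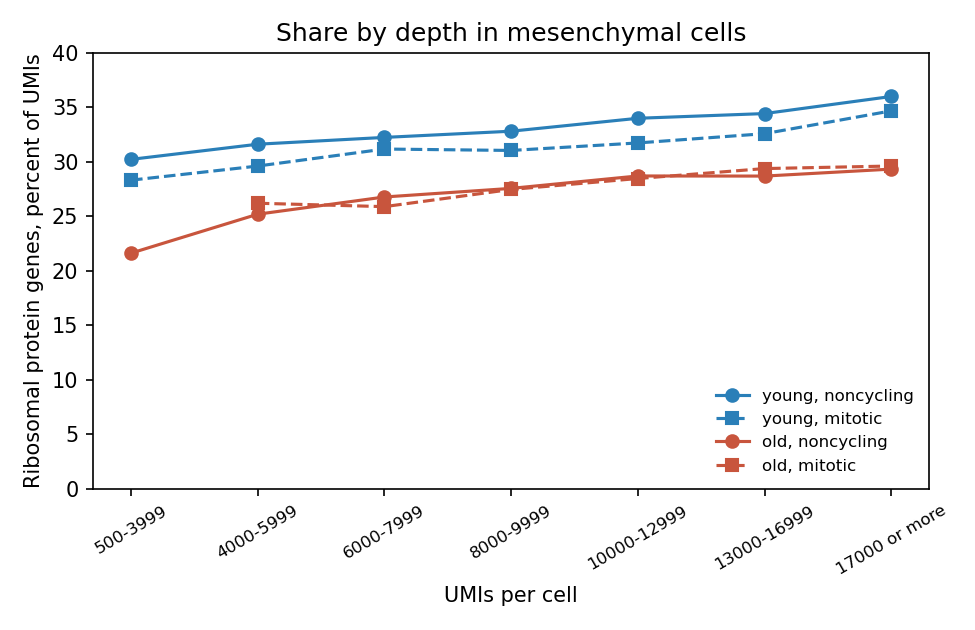
Percent of UMIs from ribosomal protein genes (y axis) in mesenchymal cells grouped by UMIs per cell (x axis), for noncycling (solid lines, circles) and mitotic cells (dashed lines, squares) of the young and old libraries. All young points lie between 28.3% and 36.0% and all old points between 21.6% and 29.6%. Within each bin the young points lie above the old ones.

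A few members differed with cycling. Rpl39l had the highest ratio in both libraries, from few UMIs: 1.64 CPM (67 UMIs) in noncycling and 2.68 CPM (90 UMIs) in mitotic cells of the young library (0.71, interval 0.24 to 1.19), and 1.59 and 2.56 CPM in the old one (0.69, interval 0.22 to 1.15). It was the 1 member called higher in the old library, and with Rpl7l1 and Rps27l it made up the 3 called in the young. Rps27l was higher in mitotic cells of both libraries, at 1263 CPM in noncycling and 1598 CPM in mitotic cells of the young library (0.34) and at 1419 and 1745 CPM in the old one (0.30). Rpl7l1 had 37.0 and 51.6 CPM in the young (0.48) and 64.8 and 74.97 CPM in the old library (0.21). Rpl12 had 3152 and 3491 CPM in the young (0.15) and 2723 and 3245 CPM in the old library (0.25), and Rps2 was at 0.15 and 0.24. At the other end Rps27 had 5452 and 4716 CPM in the young (-0.21) and 5045 and 4626 CPM in the old library (-0.13). Rps27 and its paralogue thus moved in opposite directions with cycling in each library, with intervals that exclude 0. Rpl39 (-0.16 and -0.10), Rpl38 (-0.14 and -0.11) and Rpl22l1 (-0.21 and -0.03) were also lower in mitotic cells.

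S-phase cells, few in number, lay near the others: 226 young cells held 32.8% and 137 old cells 29.8% ribosomal protein UMIs. Mesenchymal cells between the classes held 34.1% and 28.9%.

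Some cell types differed in the share by more than the cycling states did, while old pericytes and mesothelial cells and young endothelial cells lay closer to noncycling mesenchymal cells than the mitotic ones did. In the old library, which had more cells of other types, endothelial cells held 32.8% ribosomal protein UMIs (1011 cells), mesothelial cells 28.2% (35 cells), pericytes 27.4% (71 cells), Schwann cells 24.7% (68 cells), adipocytes 21.0% (85 cells) and macrophages 16.2% (99 cells). The median macrophage had 14.3%, with quartiles of 12.2 and 15.9, which lie under the 5th percentile of the noncycling mesenchymal cells (18.3%). Old endothelial cells (quartiles 27.8 and 36.6) and noncycling mesenchymal cells (quartiles 23.2 and 30.6) overlapped. In old macrophages the median depth was 6202 UMIs and in adipocytes 5894 UMIs, against 10972 UMIs in endothelial cells. Old Schwann cells were shallower still, at 4968 UMIs, and had a higher share than both. The part of depth was not tested beyond the mesenchymal bins. The plot of shares by class gives the spread over cells in each.

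**Figure D4:**
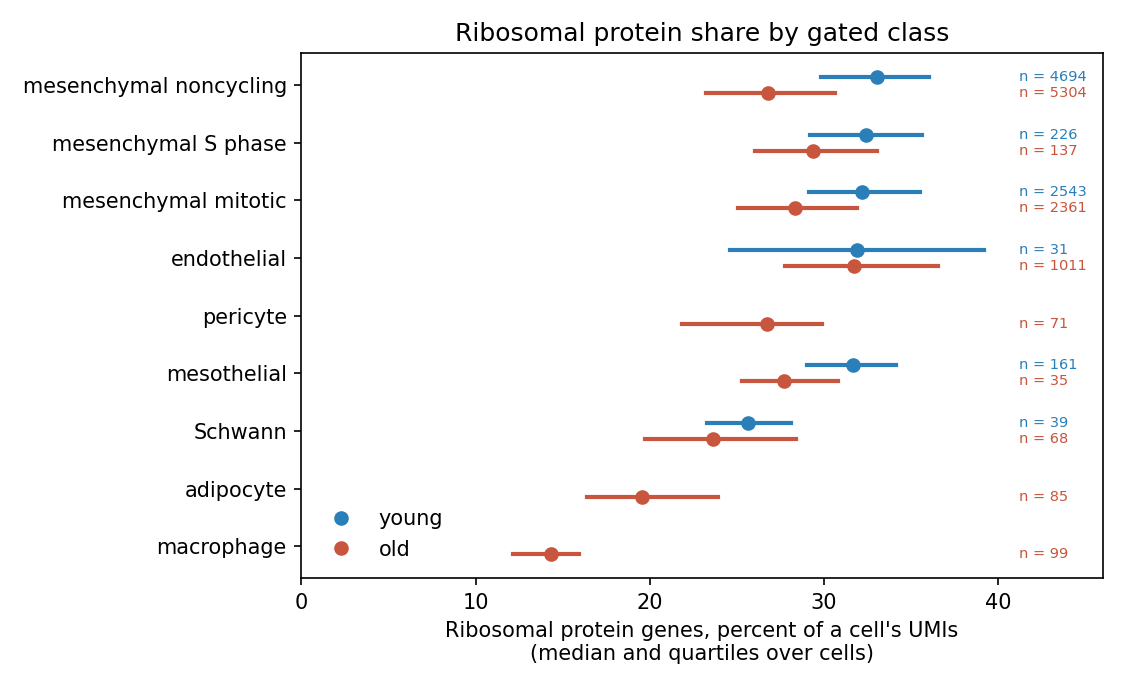
Percent of a cell's UMIs from ribosomal protein genes (x axis) by gated class (y axis), with points at the median cell and bars over the quartiles, for classes with enough cells in a library. The young mesenchymal and mesothelial medians lie right of the old ones, the endothelial medians nearly coincide at 31.9% and 31.8%, and old macrophages lie lowest at 14.3%.

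The young library held few cells outside the mesenchyme. Its 161 mesothelial cells held 31.9%, its 39 Schwann cells 26.3% and its 31 endothelial cells 33.7%. Old-to-young medians over the members were -0.17 in mesothelial, -0.10 in Schwann and -0.04 in endothelial cells. By the same limit 16 of 80 members were lower in mesothelial cells (30.7% of all genes tested), 6 of 80 in Schwann cells (25.1%) and 3 of 80 in endothelial cells (28.9%). The order of the libraries in these small classes depended on the settings. With 6 of 8 markers the shares were 30.6% young and 31.2% old in mesothelial cells (16 and 4 cells) and 25.04% and 25.5% in Schwann cells (4 and 7 cells). In endothelial cells the old share was the higher one as a mean over cells (31.7% and 32.0%) and in cells with 5000 to 15000 UMIs (31.4% and 32.3%). Whether the age difference varies between classes was not tested, since each rests on the same pair of libraries. Rpl27, Rpl36al and Rpl22l1 were the 3 lowest members tested in endothelial cells, at -0.49, -0.48 and -0.47. Free RNA in the droplets gives every class of a library some of the mesenchymal mRNAs, and its part was not tested.

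Old endothelial cells had more of most members than old noncycling mesenchymal cells. The median log2 ratio was 0.28, against -0.10 for all genes tested. Of the members, 31 were called higher, where 27.9% of all genes were, and 2 were lower, where 39.2% were. Rps6 had 4426 CPM in endothelial and 2760 CPM in mesenchymal cells (0.68), and Rps3, a DNA-repair-linked protein of the mRNA entry site, 4544 and 3185 CPM (0.51). Rplp0 had 7519 and 5507 CPM (0.45) and Rpl28 had 3051 and 2238 CPM (0.45). Against this run of higher genes, Rpl39 had 3635 CPM in endothelial and 4692 CPM in mesenchymal cells (-0.37).

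In old macrophages nearly all members were lower than in old noncycling mesenchymal cells. Of the 81 members, 79 were called lower, where 44.4% of all genes were, with a median of -0.83. Rpl12 had 1109 CPM in macrophages and 2723 CPM in mesenchymal cells (-1.30). Rps29 was the exception among the abundant genes, with 6873 CPM in macrophages and 6608 CPM in mesenchymal cells (0.06). Its CPM lay far below that of Rpl41 in old mesenchymal cells, though Rps29 was among the abundant members there too. In old macrophages the values were 6873 CPM for Rps29 and 8579 CPM for Rpl41. The single young macrophage had a share of 17.8%.

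Old adipocytes had 57 members called lower than in old noncycling mesenchymal cells, where 34.6% of all genes were, with a median of -0.44. Rpl22l1 had 548 CPM in adipocytes and 958 CPM in mesenchymal cells (-0.81), and Rpl3 had 1231 and 2093 CPM (-0.77). Rplp2 and Rps27l went the other way. Rplp2 had 5373 and 4121 CPM (0.38) and Rps27l had 1845 and 1419 CPM (0.38). Rplp0, the partner of Rplp2 on the stalk, had 3994 and 5507 CPM, so stalk genes did not share a direction there. In Schwann cells 46 members were lower than in noncycling mesenchymal cells of the young library (24.0% of all genes) and 13 in the old one (24.9%). Rplp0 was at 0.17 and 0.39 on the log2 scale in Schwann cells, above the medians of -0.33 and -0.18. Old pericytes had a median of -0.01. The gate did not exclude mesenchymal markers from them: the mesenchymal gate genes summed to 7488 CPM in old pericytes and 5990 CPM in old noncycling mesenchymal cells.

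Genes that work with the ribosome were compared in the same noncycling mesenchymal cells. The 20 translation factors and other genes known for TOP mRNAs had a median of -0.27, equal to that of the ribosomal proteins: 9 were called lower in the old library and 0 higher, where 17.5% and 36.6% of all genes were. The initiation factor subunit Eif3e had 433 and 268 CPM (-0.69), the RNA-binding protein Hnrnpa1 393 and 252 CPM (-0.64) and the elongation factor subunit Eef1g 1798 and 1158 CPM (-0.63). Eef1a1, the most abundant of them, had 6205 and 4382 CPM (-0.50). The list holds known TOP genes and was put together with earlier results of these data known.

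Ribosome biogenesis genes lay on the other side. All 34 were measured, 33 had a ratio above 0, and 27 were called higher and 0 lower in the old library, where 36.6% and 17.5% of all genes were. Their median was 0.67. These counts depend on where a gene was listed. The nucleolar gene Npm1 was placed with the translation factors, had 896 and 608 CPM (-0.56) and was called lower. Nop56, a core protein of box C/D small nucleolar particles, had 30.7 CPM in young and 79.3 CPM in old cells (1.37), Utp4, of the small-subunit processome, 9.76 and 24.3 CPM (1.32), and Bop1, a large-subunit assembly factor, 9.20 and 21.7 CPM (1.24). Nucleolin (Ncl) had 221 and 326 CPM, and the transcription factor Myc had 13.2 and 21.1 CPM.

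Mitochondrial ribosomal proteins, which serve a separate ribosome, did not follow the cytosolic ones. Of 78 symbols 77 were tested, 28 were called higher and 2 lower, with a median of 0.22 that lies near the 0.16 of all genes. Over all genes 36.6% were called higher, so the count of higher genes is near the background, and 17.5% were called lower. Among 19 genes of growth signalling to ribosomal protein mRNAs, 7 were higher and 3 lower, with a median of 0.15, which is also close to those shares. Ddit4, an mTOR inhibitor induced by stress, had 39.5 and 167 CPM (2.08), the cap-binding protein Eif4e 77.1 and 165 CPM (1.10), and its inhibitor Eif4ebp1 413 and 217 CPM (-0.93). Mtor itself had 10.8 and 13.8 CPM and Larp1 48.9 and 56.5 CPM. Of 10 tested genes of ribosome quality control and ribosome stress, 4 were higher and 1 lower, again near the 36.6% and 17.5% of all genes. The 3 with the largest ratios were all higher. Cdkn1a, the p21 cell-cycle inhibitor, had 203 and 559 CPM (1.46), Trp53 had 48.5 and 99.9 CPM (1.04) and Mdm2 had 46.3 and 82.4 CPM (0.83).

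**Figure D5:**
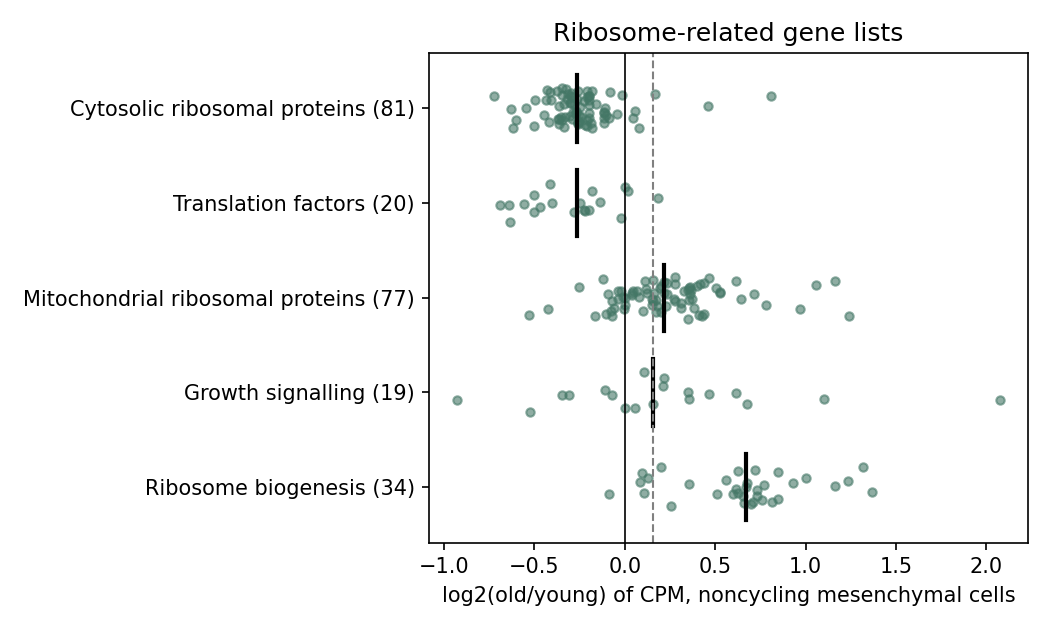
Log2 ratio of old to young CPM (x axis) in noncycling mesenchymal cells for each gene (points) of 5 lists (y axis, number of genes tested in brackets), with black bars at the list medians and a dashed line at the median of all genes tested. Cytosolic ribosomal proteins and translation factors have medians of -0.27, mitochondrial ribosomal proteins 0.22, growth signalling 0.15 and ribosome biogenesis 0.67.

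Members with and without these start sequences had similar median ratios, and the differences were not tested. Members with a run of at least 8 pyrimidines had a median log2 ratio of old to young of -0.23 and those without -0.29. With and without CTTTCC the medians were -0.24 and -0.28, and with and without CCGGAAG they were -0.29 and -0.25. Rpl35, with 1 of the longest runs, had the opposite sign from Rpl14 and Rpl22l1, whose runs are also long.

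Near-identical copies limit how exactly single members can be read. Rps27rt, an annotated retrocopy of Rps27, had 427 CPM in young and 291 CPM in old noncycling cells, Rpl10-ps3 had 124 and 76.9 CPM, and Rpl36a-ps1 had 81.6 and 45.8 CPM. The sources used here do not say how reads shared between a member and its copies were counted, so values of Rps27, Rpl10 and Rpl36a are uncertain.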

How the data were processed

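Per the labels, 1 young and 1 old library of perivascular stromal cells from WT mice were made with the 10x 3′ version 2 kit. The authors deposited UMI counts per gene and cell barcode, made with Cell Ranger 3.0.1 per the file headers and on build mm10 per the submitters' processing notes. The deposited counts were used unnormalized. Barcodes were dropped when they had under 500 genes or when over 10% of their UMIs were mitochondrial. Scrublet (in scanpy 1.11.5) marked 0 cells by its automatic threshold and so did not work as a caller; instead the highest-scoring cells were removed, 0.8% per 1000 cells (1302 young and 1504 old). Classes needed 4 of 8 markers. Mesenchymal cells needed fewer than 4 of every other list. The other types needed fewer than 4 of each other non-mesenchymal list, and could hold any number of mesenchymal markers. Mitotic and S-phase mesenchymal cells needed 4 of 12 markers. UMIs were summed per class and library and divided by the class total. Shares have exact binomial and ratios exact conditional Poisson intervals, computed with numpy 2.4.6 and scipy 1.17.1. PCR and capture errors are not covered. Genes needed 200 UMIs over both matrices and 20 in the cells compared; a 0 was replaced by 3 UMIs, and gave no direction where this reversed it. Replicate tests were not possible with 1 library per age. Intervals held the true ratio for 95.4% of 12492 genes in simulated data for the noncycling comparison. The simulated counts held counting error only, as the intervals assume, so this checks the computation and not the spread between cells or libraries. Genes named are the 8 highest and 8 lowest old-to-young ratios, the 6 most abundant members, the 4 highest and 4 lowest mitotic ratios, the 5 with the widest range over types, paralogues and their parents, stalk, 5S, Rps6 and Rps27a genes, and the 3 largest changes of each other list; any others were chosen after their values were seen. The members and lists were chosen with earlier results of these data known. Positions are from GENCODE vM21, and 20 members without a RefSeq promoter entry show no sequence. Results for some genes that this rule or the lists include are not reported here.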

Additional observations from a re-analysis of the deposited data

Results flagged for a closer look

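The mitotic and noncycling mesenchymal cells differed in opposite directions in the 2 libraries. The share of UMIs from ribosomal protein genes was 0.48 points lower in mitotic than in noncycling cells of the young library (a difference of -0.48) and 1.33 points higher in the old one. The difference between the libraries was not tested, because each age has 1 library. Beside it, the mitotic cells were the deeper ones in both libraries, and averaged over depth bins the differences were -1.74 points in the young and 0.13 points in the old library.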

How the results depend on the processing

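No paired analysis was possible because each age had 1 library. The shares by class, the mitotic differences, the members' median and the count called lower were recomputed under the alternatives named here. Paralogue pairs, contrasts between cell types, other gene lists and start sequences were not. The alternatives with 3 of 8 markers and with depth bins were chosen after seeing the data. The noncycling shares stayed lower in the old library, and the mitotic differences, the median and the count kept their direction. The order of the libraries turned in mesothelial and Schwann cells with 6 of 8 markers (30.6% young and 31.2% old; 25.04% and 25.5%) and in endothelial cells as a mean over cells (31.7% and 32.0%) and at 5000 to 15000 UMIs (31.4% and 32.3%). Counting only members with at least 2000 UMIs moved none of the values given here. Listed in order are the young and old noncycling shares (percent) and the young and old differences of mitotic minus noncycling share (points), with values left out where they moved less than the counting interval. Without doublet removal these were 33.35, -0.35 and 1.31 (old share unmoved). With the looser cell filter (200 genes, 20% mitochondrial) they were 33.15, 27.50 and, for the young difference, -0.36. With 6 of 8 markers they were 32.78, 26.97, -0.14 and 1.66, and the median ratio of the members was -0.28. Without mitochondrial UMIs they were 34.23, 28.30, -0.60 and 1.28, and without the 50 most abundant other genes as well 40.62, 33.58, -1.52 and 0.79. As means over cells they were 32.68, 27.00 and, for the old difference, 1.58. In cells with 5000 to 15000 UMIs they were 33.00, 27.57, -1.27 and 0.64. With cycling assigned after thinning to 3000 UMIs they were 33.71, 28.19, -1.81 and 0.30, and the median ratio was -0.25. With 3 of 8 markers they were 33.35, 27.67 and, for the young difference, -0.54. Averaged over depth bins the differences were -1.74 and 0.13. Median-of-ratios scaling gave a median of -0.42 and 64 members called lower instead of 25, by construction, since it sets the median of all genes to 0. Under the other alternatives between 23 and 27 members were called lower. Of the values for endothelial, Schwann and mesothelial cells, 35 moved by more than their counting interval and 10 did not. At this depth Rpl39l (583 UMIs) and the classes with few cells are the least precise. The cause of the shifts was not tested.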

Other observations

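Gm42418, a predicted gene, had 272 CPM in young and 1768 CPM in old noncycling mesenchymal cells, a log2 ratio of 2.70. Outside the members, the largest losses in CPM in the same cells were those of Malat1 (32309 and 26976 CPM), of the actin gene Actb (5191 and 2378 CPM) and of Mgp, matrix Gla protein (4005 and 1696 CPM).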
